A study of Mus musculus with 12 samples.

Results

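The mitochondrial ribosomal protein genes are the genes whose mouse symbols begin with Mrpl or Mrps and a number, and they were taken by that pattern alone, pseudogene symbols ending in -ps left out. The pattern found 78 genes among the 15788 genes listed for the WT libraries, 49 with large subunit names (Mrpl) and 29 with small subunit names (Mrps), and 16516 gene symbols are listed in any of the deposited tables. The pattern uses no measured value, though it was chosen with earlier results of these data known. All 78 are listed in each of the 4 deposited tables, all have reads in every library (78 to 15278 reads), and all passed the filter on low values, a mean normalized count of at least 10, so every count below is out of all 78.

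Mitochondria carry their own ribosomes, which translate the few proteins encoded in mitochondrial DNA, core subunits of the respiratory chain complexes and of the ATP synthase. The ribosomal RNAs come from mitochondrial DNA, but every protein of the particle is encoded in the nucleus, made in the cytosol and imported. Part of these proteins are counterparts of bacterial ribosomal proteins and part occur in mitochondria only, and macrophages are known to remodel their mitochondria when innate immune receptors are engaged.

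The libraries are RNA-seq of mouse bone marrow-derived macrophages of 2 genotypes, MGMT KO (KO) and Wild-type, labelled WTfl/fl (WT), each given DMXAA or the vehicle DMSO for 24 h. DMXAA is a small molecule that activates mouse STING, an adaptor of the response to DNA in the cytosol. The 4 groups, KO with DMXAA, WT with DMXAA, KO with DMSO and WT with DMSO, have 3 libraries each, 12 in all. The labels do not say how the knockout allele was made, in which cells it acts, or whether replicates are separate animals, so p-values measure only the spread between these samples.

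Mgmt, the targeted gene, whose protein takes alkyl groups off damaged guanine, was lower in the libraries labelled KO and not absent. It had 51, 61 and 33 reads in KO and 107, 85 and 99 in WT with DMXAA, and 121, 141 and 162 reads in KO and 263, 245 and 243 in WT with DMSO. On the log2 scale KO was lower than WT by limma, at -1.11 (adjusted p = 0.00905) with DMXAA and -0.83 (adjusted p = 0.00566) with DMSO. Libraries held 79481824 to 98135869 reads in listed genes, and each KO library with DMXAA (94083601 or more) was deeper than all other libraries. All 8 macrophage markers were listed, and their summed level was 9396 to 9485 RPM in KO and 11477 to 11719 in WT with DMXAA, against 16736 to 17543 in KO and 20594 to 21044 in WT with DMSO. The 4 monocyte markers summed to 212 to 268 and 362 to 380.2 RPM in KO and WT with DMXAA, against 12 to 12.8 and 12.9 to 19.2 with DMSO. The 7 listed of 8 neutrophil markers (all but Elane) summed to 0.734 to 0.808 RPM in KO and 2.51 to 2.89 in WT with DMXAA, against 0.733 to 1.18 in KO and 4.74 to 6.71 in WT with DMSO. The 5 dendritic cell markers summed to 5.05 to 6.18 RPM in KO and 5.36 to 5.45 in WT with DMXAA, against 0.455 to 0.626 in KO and 0.213 to 0.843 in WT with DMSO. The part of these shifts in the results below was not tested, and in bulk RNA fewer cells of a type and less RNA per cell cannot be told apart.

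Per length of annotated exon, the 78 genes differed widely in level. Their mean over the 12 libraries had a median of 9.30 RPKM (reads per kilobase of exon and per M reads), with 9.38 for the 49 large subunit genes and 8.59 for the 29 small subunit genes. Mrpl42, a mitochondria-specific protein, was highest at 111, followed by Mrps21 (81.3), the counterpart of bacterial S21, then Mrps23 (78), Mrpl30 (77.8) and Mrpl55 (66.7). Mrpl17 was lowest at 0.874, after Mrps26 (1.2), Mrps35 (1.55), Mrpl47 (1.74) and Mrpl35 (1.96). Below Mrpl42 the order of the highest genes changed between groups. In KO with DMXAA it was Mrpl30 (82.3 ± 7.98), Mrpl55 (72.7 ± 0.757), Mrps21 (70.2 ± 4.13), Mrps18c (68.6 ± 0.713) and Mrps23 (67.3 ± 2.87), and in KO with DMSO Mrps21 (89.6 ± 6.74), Mrps23 (84.3 ± 5.07), Mrpl30 (73.4 ± 1.53) and Mrpl55 (58.9 ± 3.77; SD, n = 3 each). The annotated exon length used for this was 7605 bases for Mrpl17 and 679 for Mrpl42, and a level per length comes out low where the transcript in the cells is shorter than the annotation.

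Taken as a sum, the 78 genes held a small share of the reads. The share was 0.175% ± 0.00414 in KO and 0.181% ± 0.00227 in WT with DMXAA, and 0.183% ± 0.00405 in KO and 0.188% ± 0.00783 in WT with DMSO (SD, n = 3 each). The single libraries lay between 0.171% and 0.197%. The ranges of KO with DMXAA (0.171% to 0.179%) and KO with DMSO (0.178% to 0.186%) overlapped. So did those of WT with DMXAA (0.179% to 0.183%) and WT with DMSO (0.182% to 0.197%). On the deposited scale, on which the median of all tested genes in a table of 6 libraries did not move, the same sum was higher with DMXAA. It was 181724 ± 4719 normalized counts in KO with DMXAA against 145289.7 ± 5194 in KO with DMSO, and 177529 ± 3537 in WT with DMXAA against 147621 ± 7015 in WT with DMSO (SD, n = 3 each). The log2 ratio of DMXAA over DMSO was thus 0.32 in KO and 0.27 in WT as deposited, and -0.066 in KO and -0.051 in WT as a share of reads, so the sign of the summed change depends on the scale.

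**Figure D1:**
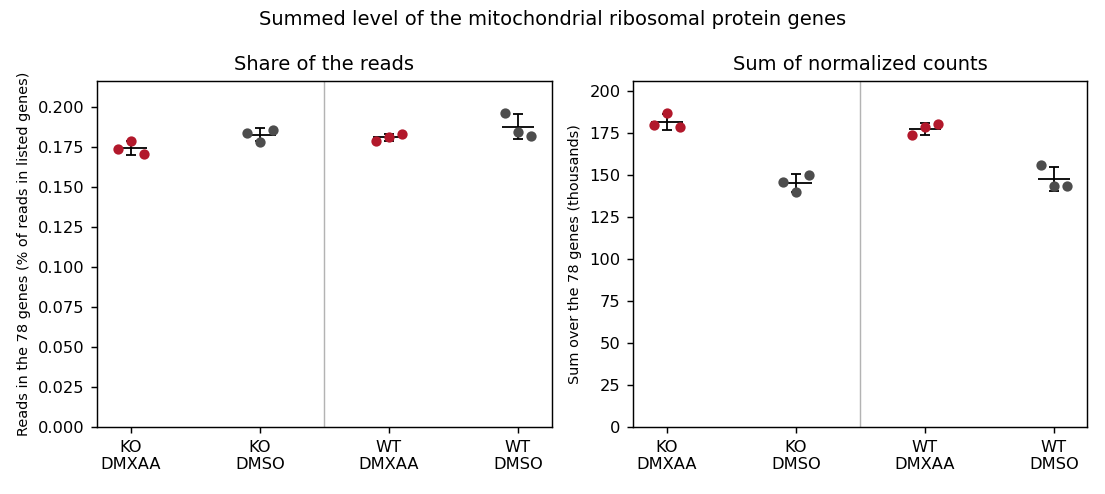
Summed level of the 78 genes in each library (points) with the group mean and SD (bars, n = 3), as a percentage of the reads in listed genes on the left and as normalized counts, within the KO table and the WT table, on the right. The mean shares with DMXAA, 0.175% in KO and 0.181% in WT, lie just below those with DMSO, 0.183% in KO and 0.188% in WT. Single libraries overlap in both genotypes. The sums of normalized counts with DMXAA lie above those with DMSO.

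With DMXAA, 67.9% of the mitochondrial ribosomal protein genes were called in KO and 57.7% in WT, close to the shares of all tested genes called in either direction, 66.6% and 62.8%. As deposited, though not with libraries at equal totals, most of the calls were upward. In KO, 47 of 78 (60.3%) were higher and 6 (7.69%) lower with DMXAA than with DMSO, where 33.7% of all 12704 tested genes were called higher and 32.9% lower. In WT, 42 (53.8%) were higher and 3 (3.85%) lower, where 31.7% of 12752 tested genes were called higher and 31.1% lower. A gene is called at an adjusted p below 0.05 in a linear model (limma) fitted over all tested genes. The median log2 change of the 78 genes was 0.24 in KO and 0.21 in WT, where the median of all tested genes was -0.00 in each.

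With the libraries rescaled to equal totals of reads, the changes of all genes shifted downward by nearly the same amount. On that scale 17 (21.8%) were higher and 35 (44.9%) lower in KO, where 15.7% and 61.7% of all tested genes were, and 14 (17.9%) were higher and 26 (33.3%) lower in WT, where 16.0% and 55.6% were. The median of the 78 genes was -0.15 in KO and -0.11 in WT, and the median of all genes -0.39 and -0.32. On either scale 62 of the 78 in KO and 61 in WT lay above the median of all genes.

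Calls fell on both subunits. Which subunit had the larger share of called genes depended on the scale, while rescaling left the order of their medians unchanged. Of the 49 Mrpl genes, 34 rose and 2 fell in KO (median 0.36) and 30 rose and 1 fell in WT (median 0.27), as deposited. Of the 29 Mrps genes, 13 rose and 4 fell in KO (median 0.14) and 12 rose and 2 fell in WT (median 0.13). The share called was thus 73.5% of Mrpl and 58.6% of Mrps genes in KO, and 63.3% and 48.3% in WT. Over all tested genes it was 66.6% in KO and 62.8% in WT. With equal totals 10 of 49 Mrpl genes were higher and 19 lower in KO, and 10 higher and 13 lower in WT. Of the 29 Mrps genes, 7 were higher and 16 lower in KO, and 4 higher and 13 lower in WT. On that scale the share called was 59.2% of Mrpl and 79.3% of Mrps genes in KO, and 46.9% and 58.6% in WT. Of all tested genes, 15.7% were higher and 61.7% lower in KO on that scale, and 16.0% and 55.6% in WT. The medians of Mrpl and Mrps genes were -0.03 and -0.25 in KO and -0.05 and -0.18 in WT. The difference between subunits was not tested. The subunit here goes by the symbol: in mammalian structures the proteins of Mrps18a and Mrps30 sit in the large subunit.

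The higher calls were in part shared between genotypes. As deposited, 37 genes were called higher in both, 78.7% of the KO calls and 88.1% of the WT calls, against 82.4% and 87.4% of the higher calls over all genes tested in both tables, of which 28.0% were called higher in both. With equal totals 10 were higher in both, 58.8% of the KO and 71.4% of the WT calls, against 83.9% and 82.2% over all genes. As deposited, Mrpl23 and Mrps28 were the 2 called lower in both, where 26.6% of genes were. With equal totals 24 were lower in both, where 6573 of 12585 genes were. These 24 made up 68.6% of the KO and 92.3% of the WT calls, against 84.5% and 93.3% over all genes. On both scales and in both genotypes, 10 of the 78 genes were called higher, where 13.3% of 12556 genes were: Mrpl1, Mrpl27, Mrpl30, Mrpl32, Mrpl47, Mrpl55, Mrps11, Mrps18a, Mrps18c and Mrps30. Without overlap between the 3 and 3 libraries, 49 genes lay above and 7 below in KO (background 35.8% and 35.2%), and 44 above and 7 below in WT (background 34.7% and 34.0%).

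**Figure D2:**
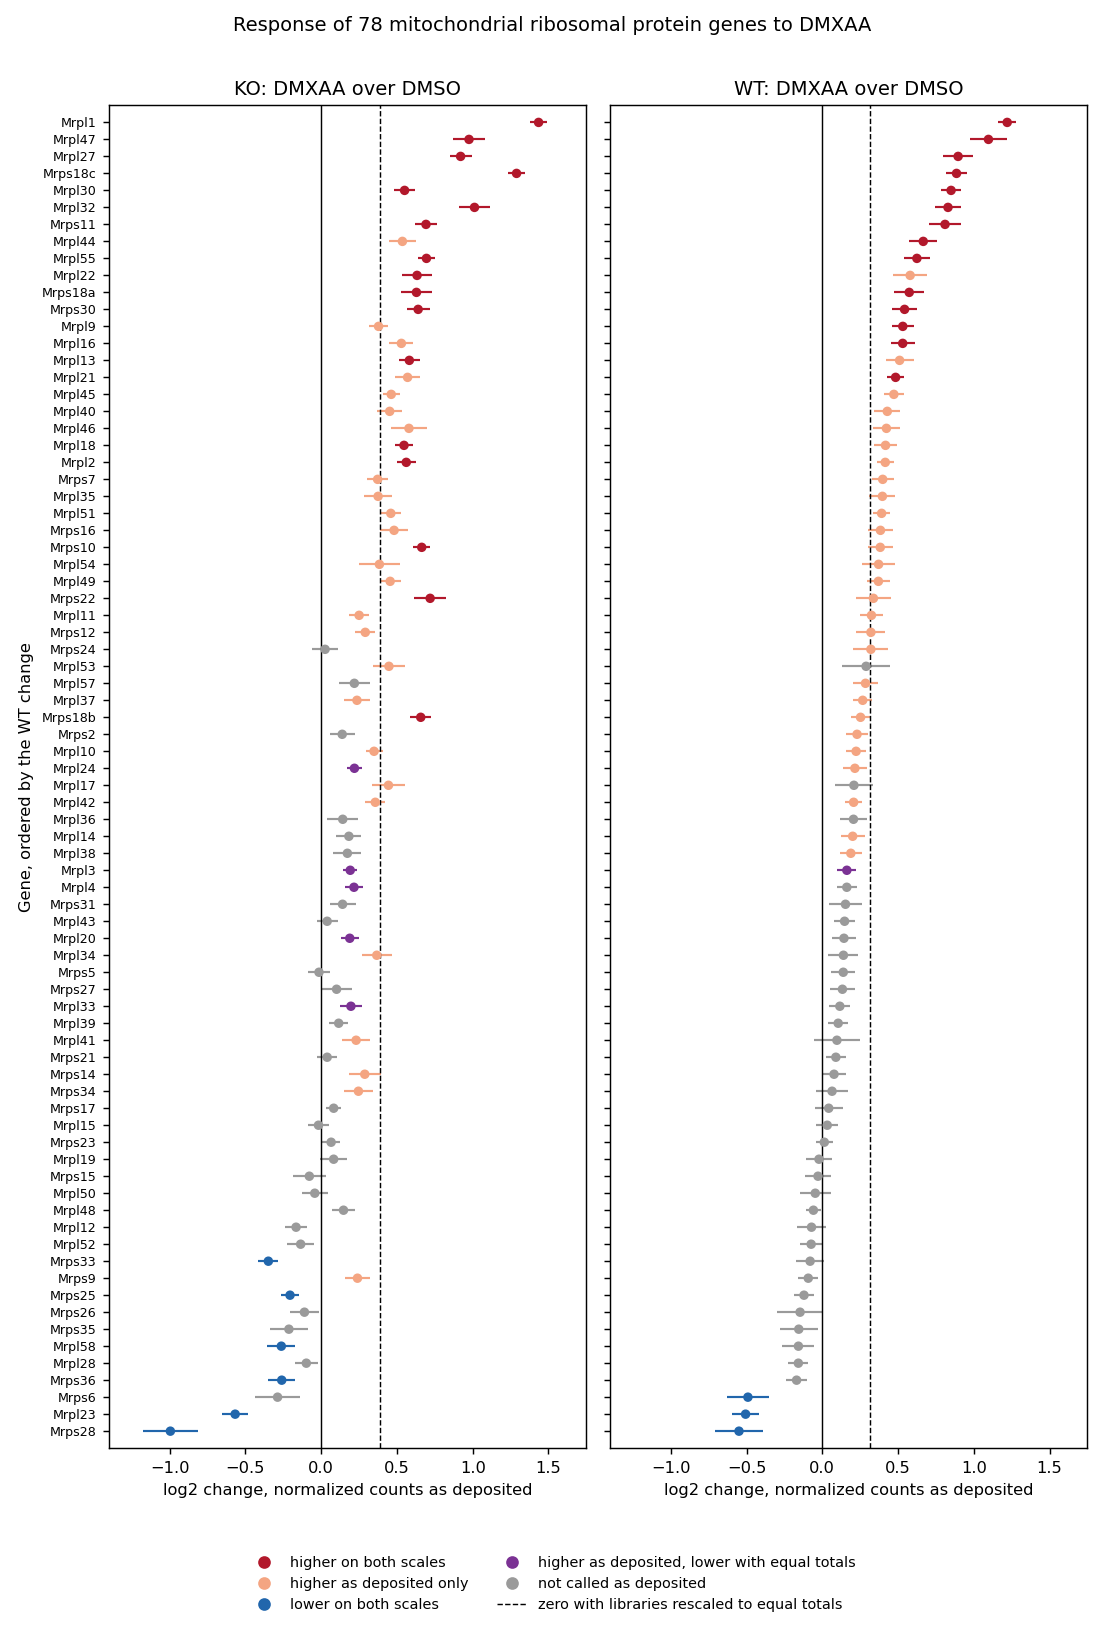
log2 change of each of the 78 genes with DMXAA over DMSO (x axis, normalized counts as deposited; points with SE, n = 3 libraries per group), KO on the left and WT on the right, ordered by the WT change. The solid line is zero as deposited and the dashed line zero with libraries rescaled to equal totals; Mrpl1 tops both panels at 1.43 in KO and 1.22 in WT, and Mrps28 is at the bottom at -1.0 in KO and -0.55 in WT.

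Mrpl1, the counterpart of bacterial L1 (chromosome 5, 96209493 to 96266727, plus strand), showed the largest increase in both genotypes. Its normalized counts in replicates 1 to 3, the quantity given per library for all genes that follow, were 4676, 4396 and 4506 in KO with DMXAA, against 1617, 1757 and 1648 in KO with DMSO. In WT they were 4547, 4567 and 4178 with DMXAA, against 1958, 1861 and 1881 with DMSO. Every DMXAA library was more than 2 times as high as every DMSO library of its genotype. The log2 change was 1.43 (SE 0.057, adjusted p = 5.81e-09) in KO and 1.22 (SE 0.059, adjusted p = 5.45e-08) in WT, and 1.05 (adjusted p = 1.41e-07) and 0.90 (adjusted p = 5.33e-07) with equal totals.

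Mrpl32, whose precursor is cleaved by the m-AAA protease of the inner membrane in yeast and mouse before it joins the large subunit (chromosome 13, 14608184 to 14613165, minus strand), had normalized counts of 706, 773 and 695 in KO with DMXAA, against 359, 399.8 and 321 in KO with DMSO. In WT its counts were 716, 756 and 695 with DMXAA, against 429, 390.2 and 399 with DMSO. The groups did not overlap in either genotype. The log2 change was 1.01 (SE 0.10, adjusted p = 9.66e-06) in KO and 0.83 (SE 0.085, adjusted p = 1.58e-05) in WT, and 0.62 (adjusted p = 4.10e-04) and 0.51 (adjusted p = 3.63e-04) with equal totals.

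Mrpl27, the counterpart of bacterial L27, a protein that reaches toward the peptidyl transferase centre (chromosome 11, 94653767 to 94660089, plus strand), had 2799, 2940.1 and 2609 in KO with DMXAA, against 1593, 1417 and 1402 in KO with DMSO. The WT libraries had 2518, 2851 and 3289 with DMXAA, against 1671, 1455 and 1505 with DMSO. All DMXAA libraries were above all DMSO libraries, and the WT libraries with DMXAA spread more widely than the KO ones. The log2 change was 0.92 (SE 0.072, adjusted p = 1.30e-06) in KO and 0.90 (SE 0.098, adjusted p = 2.37e-05) in WT, and 0.53 (adjusted p = 8.83e-05) and 0.58 (adjusted p = 3.37e-04) with equal totals.

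Mrpl47, the counterpart of bacterial L29 near the exit of the nascent chain (chromosome 3, 32725397 to 32737605, minus strand), was one of the lowest of the 78 genes per length. It had 756, 619.6 and 756 in KO with DMXAA, against 384, 357 and 338 in KO with DMSO. WT counts were 829, 767 and 643 with DMXAA, against 391, 327 and 326 with DMSO. No library crossed between treatments, and the log2 change was 0.98 (SE 0.11, adjusted p = 1.59e-05) in KO and 1.1 (SE 0.12, adjusted p = 2.42e-05) in WT, with 0.59 (adjusted p = 6.70e-04) and 0.78 (adjusted p = 2.42e-04) at equal totals. In the annotation, 13.4% of its exon bases lie opposite an exon of Actl6a.

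Mrpl30, the counterpart of bacterial L30 (chromosome 1, 37890477 to 37898535, plus strand), was among the most abundant of the genes. It had 7901, 9299.5 and 7808 in KO with DMXAA, against 5546, 5706 and 5769.6 in KO with DMSO. WT libraries gave 8068, 8971 and 9250.0 with DMXAA, against 5189.9, 4558 and 4832 with DMSO. Both genotypes separated by treatment without overlap. Its log2 change was 0.55 (SE 0.067, adjusted p = 3.71e-05) in KO and 0.85 (SE 0.068, adjusted p = 2.42e-06) in WT, and 0.16 (adjusted p = 0.0453) and 0.53 (adjusted p = 4.02e-05) with equal totals.

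Of the other large subunit genes named by rank, Mrpl55, a mitochondria-specific protein, rose by 0.69 (SE 0.059, adjusted p = 2.35e-06) in KO and 0.62 (SE 0.085, adjusted p = 1.17e-04) in WT, with means of 7765 ± 87.6 in KO with DMXAA against 4806 ± 375 in KO with DMSO and 7522 ± 514 in WT with DMXAA against 4894 ± 576 in WT with DMSO. Mrpl44, which resembles RNase III, rose by 0.67 (SE 0.092, adjusted p = 1.33e-04) in WT, with 1083 ± 26.4 in WT with DMXAA against 685 ± 80.9 in WT with DMSO. In KO its change was 0.54 (SE 0.092, adjusted p = 4.42e-04); with equal totals it was higher in WT (0.35) and not called in KO.

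Among the small subunit genes, Mrps18c, a counterpart of bacterial S18 (chromosome 5, 100798627 to 100804471, plus strand), moved most. It had 6722, 6751 and 6665 in KO with DMXAA, against 2923, 2569 and 2757 in KO with DMSO. In WT it had 5504, 6278 and 5266 with DMXAA, against 3024, 3054 and 3121 with DMSO. In each genotype every DMXAA library lay above every DMSO library, and the 3 KO libraries with DMXAA were close to each other. The log2 change was 1.29 (SE 0.056, adjusted p = 1.30e-08) in KO and 0.89 (SE 0.069, adjusted p = 1.90e-06) in WT, and 0.90 (adjusted p = 2.00e-07) and 0.57 (adjusted p = 3.98e-05) with equal totals.

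Mrps11, the counterpart of bacterial S11 (chromosome 7, 78783119 to 78792989, plus strand), had 2989, 2825 and 2695 in KO with DMXAA, against 1802, 1612 and 1858 in KO with DMSO. The WT libraries had 3204, 2963 and 3245 with DMXAA, against 2144, 1703 and 1564 with DMSO. It separated by treatment in both genotypes, with a log2 change of 0.69 (SE 0.07, adjusted p = 9.70e-06) in KO and 0.81 (SE 0.11, adjusted p = 8.57e-05) in WT, and of 0.30 (adjusted p = 0.00237) and 0.49 (adjusted p = 0.00189) with equal totals. Mrps22, a mitochondria-specific protein of the small subunit whose human gene is mutated in a disorder of oxidative phosphorylation, had 738, 728 and 625 in KO with DMXAA, against 463, 377 and 431 in KO with DMSO. WT counts were 723, 631 and 840.2 with DMXAA, against 613, 534 and 581 with DMSO. The groups did not overlap in either genotype, though in WT the nearest libraries were close. Its change was 0.72 (SE 0.11, adjusted p = 1.67e-04) in KO and 0.34 (SE 0.11, adjusted p = 0.0246) in WT; with equal totals it was 0.33 (adjusted p = 0.0165) in KO and 0.02 (adjusted p = 0.879) in WT.

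As deposited, a smaller group fell. Mrps28, a small subunit protein (chromosome 3, 8802146 to 8923918, minus strand), had 84.1, 84.9 and 88.8 in KO with DMXAA, against 141, 166 and 220.0 in KO with DMSO. WT libraries gave 112, 104 and 143 with DMXAA, against 184, 167 and 173 with DMSO. The DMXAA libraries lay below all DMSO libraries in both genotypes, and in KO the DMXAA libraries were tightly grouped while the DMSO libraries were spread. The log2 change was -1.0 (SE 0.18, adjusted p = 7.40e-04) in KO and -0.55 (SE 0.16, adjusted p = 0.0117) in WT, and -1.38 (adjusted p = 5.96e-05) and -0.87 (adjusted p = 6.63e-04) with equal totals.

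Mrpl23, the counterpart of bacterial L23 at the tunnel exit (chromosome 7, 142532686 to 142540747, plus strand), had 943, 1112 and 1002 in KO with DMXAA, against 1505, 1385 and 1643 in KO with DMSO. In WT it had 1012, 1102 and 1152 with DMXAA, against 1547, 1402 and 1699 with DMSO. Again no DMXAA library reached a DMSO library. The log2 change was -0.57 (SE 0.087, adjusted p = 2.06e-04) in KO and -0.51 (SE 0.087, adjusted p = 5.81e-04) in WT, and -0.96 (adjusted p = 2.77e-06) and -0.82 (adjusted p = 1.31e-05) with equal totals.

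As deposited, the other lower calls were made in 1 genotype each. With equal totals these genes, Mrps6, Mrps33, Mrpl58, Mrps36 and Mrps25, were each called lower in both KO and WT. Mrps6, the counterpart of bacterial S6, was lower in WT, with 379, 287 and 363 in WT with DMXAA, against 508, 407 and 532 in WT with DMSO, a change of -0.49 (SE 0.14, adjusted p = 0.0116). In KO the change was -0.29 (SE 0.15, adjusted p = 0.111), with libraries that overlapped. Mrps33, a mitochondria-specific protein, was lower in KO, at -0.35 (SE 0.067, adjusted p = 9.36e-04), with 1359 ± 53 in KO with DMXAA against 1732 ± 93.7 in KO with DMSO, and in WT the value was -0.08 (SE 0.094, adjusted p = 0.476).

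In KO, 3 further genes were called lower by smaller amounts. Mrpl58, the peptidyl-tRNA hydrolase that rescues stalled mitochondrial ribosomes, changed by -0.26 (SE 0.094, adjusted p = 0.0295) with libraries that overlap between treatments. Mrps36, which despite its name has been described as a subunit of the alpha-ketoglutarate dehydrogenase complex, changed by -0.26 (SE 0.088, adjusted p = 0.0236), and Mrps25, a mitochondria-specific small subunit protein, by -0.21 (SE 0.06, adjusted p = 0.0117). The calls of Mrpl58 and Mrps36 were lost without 1 library: Mrpl58 without KO DMSO replicate 1, KO DMSO replicate 3 or KO DMXAA replicate 3 (adjusted p 0.0651 to 0.117), and Mrps36 without KO DMSO replicate 1 or KO DMXAA replicate 3 (0.0998 and 0.0949). The difference between genotypes was not called for any of these 5 genes (interaction adjusted p of 0.67 for Mrps6, 0.19 for Mrps33, 0.77 for Mrpl58, 0.72 for Mrps36 and 0.61 for Mrps25).

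**Figure D3:**
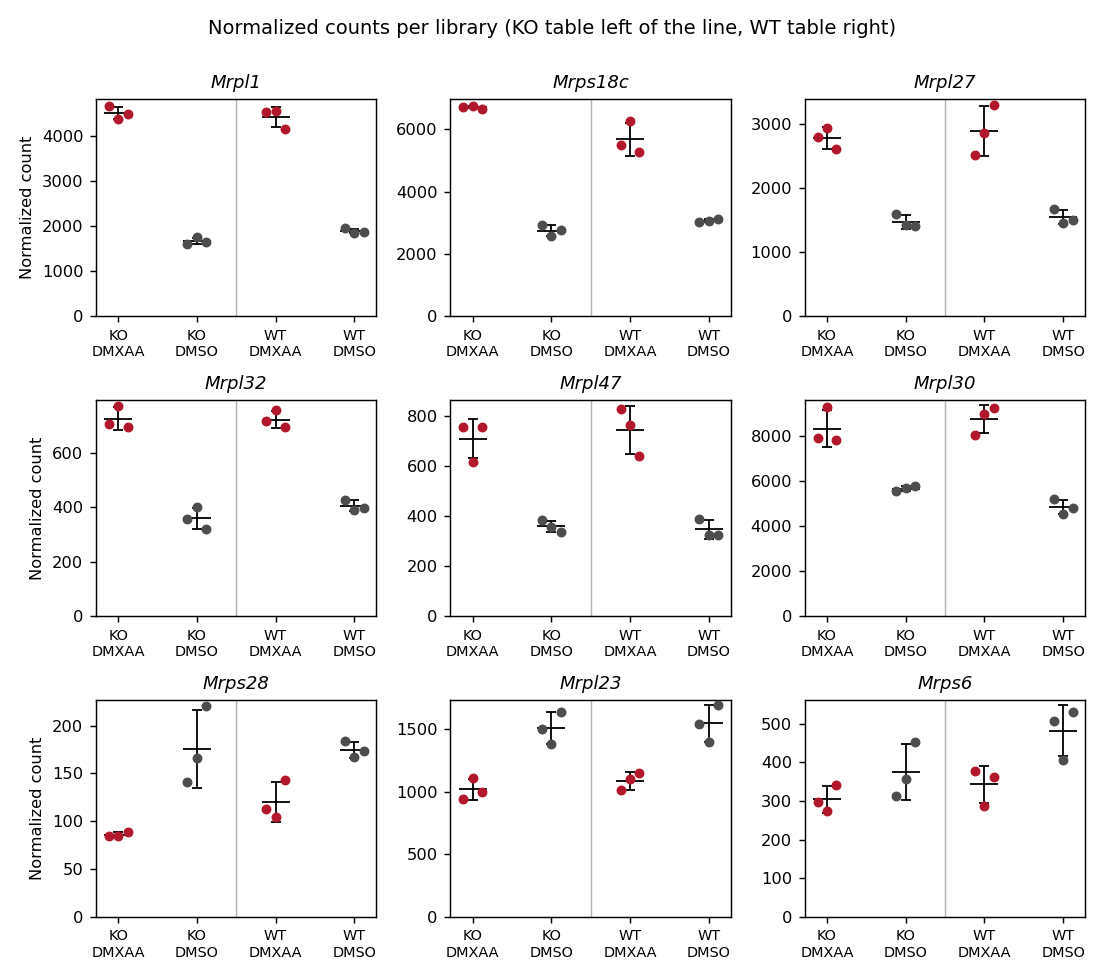
Normalized counts of 9 genes in each library (points; bars are mean and SD, n = 3), DMXAA in red and DMSO in grey, with the KO table left of the vertical line and the WT table right of it; each y axis starts at 0. Mrpl1, Mrps18c, Mrpl27, Mrpl32, Mrpl47 and Mrpl30 are higher and Mrps28 and Mrpl23 lower in every DMXAA library; Mrps6 overlaps in KO.

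For several members the scale decides the direction. Called higher as deposited and lower with equal totals were Mrpl24, Mrpl3, Mrpl4, Mrpl20 and Mrpl33 in KO and Mrpl3 in WT, all counterparts of bacterial large subunit proteins; 4.86% of all genes in KO and 1.4% in WT turned in this way. Mrpl3, which lies near the peptidyl transferase centre, had 5702, 5447 and 5706 in KO with DMXAA, against 4898, 4877 and 4978 in KO with DMSO. The WT libraries had 5673, 5746 and 5866 with DMXAA, against 5462, 4692 and 5327 with DMSO. These groups did not overlap as deposited, and the log2 change was 0.19 (SE 0.046, adjusted p = 0.00372) in KO and 0.16 (SE 0.063, adjusted p = 0.0474) in WT, against -0.20 (adjusted p = 0.00264) and -0.16 (adjusted p = 0.0411) with equal totals. The log2 change in KO was 0.22 (SE 0.051, adjusted p = 0.00345) for Mrpl24, 0.22 (SE 0.061, adjusted p = 0.00978) for Mrpl4, 0.19 (SE 0.059, adjusted p = 0.0168) for Mrpl20 and 0.20 (SE 0.072, adjusted p = 0.0337) for Mrpl33. With equal totals these were -0.17, -0.17, -0.20 and -0.19 in the same order. In WT the call of Mrpl3 was lost without any 1 of WT DMXAA replicates 1 to 3 or WT DMSO replicates 2 and 3 (adjusted p 0.0524 to 0.176). In KO that of Mrpl33 was lost without KO DMXAA replicate 1 or 2 or KO DMSO replicate 2 or 3 (0.0658 to 0.118), and that of Mrpl20 without KO DMXAA replicate 2 (0.0549).

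The promoters of the members were read for motifs of factors known for genes of mitochondrial translation. RefSeq windows (GRCm38.p6) ran from 250 bases before to 50 after the gene start of their own annotation. They were found for 69 of the 78 genes, 75 windows in all. Mrpl4, Mrpl13, Mrpl15, Mrpl19, Mrpl38, Mrpl54, Mrps28, Mrps34 and Mrps35 had none. That start can differ from the gene coordinates used elsewhere here. For Mrpl1, Mrpl33 and Mrpl47, for example, the window lies wholly inside those coordinates. The motifs, searched on both strands, were CCGGAAGT (bound by ETS factors such as GABP), GCGCANGCG (NRF1), AAGATGGCG (YY1) and GAAANNGAA (the interferon-stimulated response element, ISRE), each a core of a longer site. The ETS letters occurred in 16.0% of the members' windows, against 8.07% of windows of tested genes and 3.89% of all windows. The NRF1 letters occurred in 21.3%, against 13% and 6.25%, and the YY1 letters in 10.7%, against 2.95% and 1.4%. The ISRE letters occurred in 9.33%, against 7.34% and 8.56%. Matches of different motifs overlapped in none of the members' windows, and median GC content was 58.7% in the members' windows and 52.7% in all windows.

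The windows of 5 of the 10 genes that rose on both scales in both genotypes are printed to show the range from no match to several, with the matched letters in capitals. The Mrpl1 window, which lies inside the gene coordinates given above, holds none of the 4 motifs (chr5:96209865-96210164, plus strand). Mrps18c holds the ETS letters on the opposite strand and the ISRE letters (chr5:100798509-100798808, plus strand). Mrpl27 holds the ETS letters (chr11:94653541-94653840, plus strand), and Mrpl32 (chr13:14612988-14613287, minus strand) and Mrpl30 (chr1:37890227-37890526, plus strand) hold the NRF1 letters, each at 2 places, of which 1 in Mrpl32 matches on both strands.
Mrpl1: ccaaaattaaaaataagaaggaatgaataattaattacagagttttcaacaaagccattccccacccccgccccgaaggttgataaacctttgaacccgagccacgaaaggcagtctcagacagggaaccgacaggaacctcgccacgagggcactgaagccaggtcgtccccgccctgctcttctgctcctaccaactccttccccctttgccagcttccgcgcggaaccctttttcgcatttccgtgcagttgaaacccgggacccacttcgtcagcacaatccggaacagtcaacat
Mrps18c: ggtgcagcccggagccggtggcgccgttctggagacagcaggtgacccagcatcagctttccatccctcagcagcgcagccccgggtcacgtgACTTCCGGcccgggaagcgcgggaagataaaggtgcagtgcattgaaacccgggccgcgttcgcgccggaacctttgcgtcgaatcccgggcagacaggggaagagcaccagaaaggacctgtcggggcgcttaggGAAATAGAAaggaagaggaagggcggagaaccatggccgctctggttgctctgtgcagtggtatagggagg
Mrpl27: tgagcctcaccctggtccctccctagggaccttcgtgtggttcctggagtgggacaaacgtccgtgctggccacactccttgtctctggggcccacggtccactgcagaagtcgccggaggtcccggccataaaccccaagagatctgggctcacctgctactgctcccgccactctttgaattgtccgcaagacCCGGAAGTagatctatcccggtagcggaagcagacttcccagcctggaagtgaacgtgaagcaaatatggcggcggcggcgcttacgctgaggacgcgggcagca
Mrpl32: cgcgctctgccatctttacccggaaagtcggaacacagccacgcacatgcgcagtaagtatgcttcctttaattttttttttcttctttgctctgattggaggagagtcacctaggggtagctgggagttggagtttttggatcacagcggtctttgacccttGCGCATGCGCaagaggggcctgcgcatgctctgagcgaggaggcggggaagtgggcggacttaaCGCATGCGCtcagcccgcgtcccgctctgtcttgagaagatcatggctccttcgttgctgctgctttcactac
Mrpl30: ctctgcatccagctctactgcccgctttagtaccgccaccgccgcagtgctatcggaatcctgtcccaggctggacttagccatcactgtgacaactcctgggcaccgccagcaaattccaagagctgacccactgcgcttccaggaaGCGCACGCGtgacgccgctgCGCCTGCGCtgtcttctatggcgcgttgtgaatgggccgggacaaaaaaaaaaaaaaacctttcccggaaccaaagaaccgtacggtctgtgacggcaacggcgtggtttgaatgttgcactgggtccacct

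Of the 12 genes with ETS letters, 7 rose in KO and 6 in WT (median log2 change 0.19 and 0.15), and of the 57 without, 36 and 33 (median 0.29 and 0.25). Of the 16 with NRF1 letters, 10 rose in each genotype, and of the 53 without, 33 in KO and 29 in WT. Of the 8 with YY1 letters, 5 rose in KO and 6 in WT, and of the 61 without, 38 and 33. Of the 7 with ISRE letters, 5 rose in KO and 4 in WT, and of the 62 without, 38 and 35. For each motif, 0 genes with it fell, and 5 in KO and 2 in WT without it fell. These are calls as deposited, where 33.7% of all tested genes rose in KO and 31.7% in WT. Such counts were not made with equal totals. Genes with and without a motif were not compared by a test. A match is a description of letters and shows no binding.

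Between genotypes without the agonist, few of these genes differed, a smaller share than of all genes. With DMSO, 5 of 78 (6.41%) were lower in KO than in WT and none higher, where 9.58% of 12814 tested genes were called lower and 7.04% higher. At an unadjusted p below 0.05 in limma, 7 were lower and 1 higher, and edgeR, a count model, called 5 lower and 0 higher. The median log2 difference was -0.07, beside 0.01 over all genes. With libraries not overlapping, 1 gene lay above and 14 below in KO, where 17.1% and 17.6% of all genes did.

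Mrps22 showed the largest of these differences. It had 504, 412 and 468 in KO with DMSO, against 686, 599 and 650.2 in WT with DMSO. Mrps10, the counterpart of bacterial S10, had 1555, 1665 and 1648 in KO with DMSO, against 2087, 1974 and 2078 in WT with DMSO. In both genes each KO library was below each WT library. The log2 difference was -0.49 (SE 0.10, adjusted p = 0.0085) for Mrps22 and -0.33 (SE 0.066, adjusted p = 0.00536) for Mrps10, and both stayed called without any 1 library. With equal totals they were at -0.46 (adjusted p = 0.0108) and -0.31 (adjusted p = 0.00856).

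Mrpl18, which in human cells is also known to help carry 5S ribosomal RNA into mitochondria, differed by -0.24 (SE 0.071, adjusted p = 0.0406), with 1278 ± 7.67 in KO with DMSO against 1512 ± 86.1 in WT with DMSO. Mrpl1 differed by -0.22 (SE 0.066, adjusted p = 0.0397) and Mrps18b by -0.22 (SE 0.063, adjusted p = 0.0366). None of these 3 was called with equal totals. Each also lost its call without 1 library: Mrpl18 without any KO replicate or WT replicate 1 or 2 (adjusted p 0.0911 to 0.107), Mrpl1 without KO replicate 1 or 3 or any WT replicate (0.0826 to 0.15), and Mrps18b without KO or WT replicate 1 or 2 (0.0794 to 0.13). With equal totals 1 gene, Mrpl30, was called higher (0.21, against 0.18, SE 0.061, adjusted p = 0.0621 as deposited) and 2 lower, where 8.78% and 8.48% of all genes were.

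With DMXAA, 2 genes (2.56%) were higher and 2 lower in KO than in WT, where 10.7% of 12499 tested genes were called higher and 10.8% lower. The median log2 difference was -0.04, beside -0.00 over all genes. Higher were Mrps18c, by 0.20 (SE 0.061, adjusted p = 0.0387), and Mrpl4, a counterpart of bacterial L4, by 0.14 (SE 0.046, adjusted p = 0.0463). Lower were Mrps5, the counterpart of bacterial S5, at -0.26 (SE 0.077, adjusted p = 0.0342), and Mrps11, at -0.19 (SE 0.06, adjusted p = 0.0476).

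Mrps18c had 6025, 6035 and 5959.6 in KO with DMXAA, against 5089, 5770.0 and 4854 in WT with DMXAA. Mrps5 had 968, 1011 and 1102 in KO with DMXAA, against 1193, 1169 and 1337 in WT with DMXAA. In these genes, as in Mrpl4 and Mrps11, the 2 genotypes did not overlap, which held for 4 genes above and 13 below (background 19.1% and 18.5%). With equal totals 0 genes were higher and 9 lower, where 7.51% and 14.4% of all genes were, Mrps5 (-0.31, adjusted p = 0.0154) and Mrps11 (-0.23, adjusted p = 0.0216) among them. All 4 calls were lost without 1 library: Mrpl4 without any 1 of the 6 (adjusted p 0.0612 to 0.135), Mrps18c without any KO replicate or WT replicate 1 or 3 (0.0835 to 0.123), Mrps5 without KO replicate 1 or 2 or WT replicate 1 or 3 (0.0574 to 0.115), and Mrps11 without KO replicate 2 or 3 or WT replicate 1 or 3 (0.101 to 0.16).

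The response to DMXAA itself differed between the genotypes for 2 of the 78 genes (2.56%), where 5.37% of 12729 tested genes had a higher and 3.24% a lower response in KO. Both belong to the Mrps18 paralogues, Mrps18a, Mrps18b and Mrps18c, relatives of bacterial S18. The proteins of Mrps18b and Mrps18c sit at different places of the small subunit. In limma 0 genes had a lower response (2 at an unadjusted p below 0.05, where 6 were higher), and edgeR called the same numbers, 2 higher and 0 lower. With equal totals the same 2 were higher (background 3.79%) and Mrpl30 lower (background 5.87%, -0.37, adjusted p = 0.0273).

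Mrps18b (chromosome 17, 35910379 to 35916389, minus strand) had 7963, 7376 and 6699.8 in KO with DMXAA, against 4685, 4345 and 4929.8 in KO with DMSO. WT counts were 5857, 6748 and 6182 with DMXAA, against 5417, 5316 and 5020.1 with DMSO. Libraries separated by treatment in both genotypes, by a wider gap in KO. The response was 0.66 (SE 0.071, adjusted p = 1.50e-05) in KO and 0.25 (SE 0.063, adjusted p = 0.00551) in WT, and the difference of the responses was 0.40 (SE 0.099, adjusted p = 0.0206). With equal totals the WT response was -0.065 (adjusted p = 0.353), the KO response 0.27 (adjusted p = 0.00555) and their difference 0.33 (adjusted p = 0.0456).

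For Mrps18c the difference of the responses was 0.40 (SE 0.089, adjusted p = 0.0116), and 0.33 (adjusted p = 0.0298) with equal totals. Without any 1 of the 12 libraries it stayed called. The call of Mrps18b was lost without KO DMXAA replicate 1 (0.34), WT DMXAA replicate 1 (0.36) or KO DMSO replicate 2 (0.36), at adjusted p 0.0508 to 0.0548. Between genotypes, Mrps18b differed by -0.22 (SE 0.063, adjusted p = 0.0366) with DMSO and by 0.19 (SE 0.069, adjusted p = 0.084) with DMXAA. For Mrps18c these differences were -0.20 (SE 0.064, adjusted p = 0.0548) and 0.20 (SE 0.061, adjusted p = 0.0387).

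The third paralogue, Mrps18a (chromosome 17, 46110986 to 46128910, plus strand), had 2579.9, 3143 and 2749 in KO with DMXAA, against 1716, 1652 and 2126 in KO with DMSO. WT libraries gave 2685, 2609 and 3325 with DMXAA, against 2111, 1829.5 and 1827 with DMSO. It rose by 0.63 (SE 0.10, adjusted p = 3.30e-04) in KO and 0.57 (SE 0.099, adjusted p = 6.02e-04) in WT, and the difference of the responses was 0.053 (SE 0.16, adjusted p = 0.898). Per length, Mrps18b averaged 60.2, Mrps18c 52.2 and Mrps18a 25.1 RPKM over all libraries. In the annotation 59.1% of the exon bases of Mrps18b lie opposite the antisense gene Gm16279, and 18.5% of those of Mrps18c are shared with Gm43511 on the same strand; whether the counting used strand is not given in the sources used here.

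**Figure D4:**
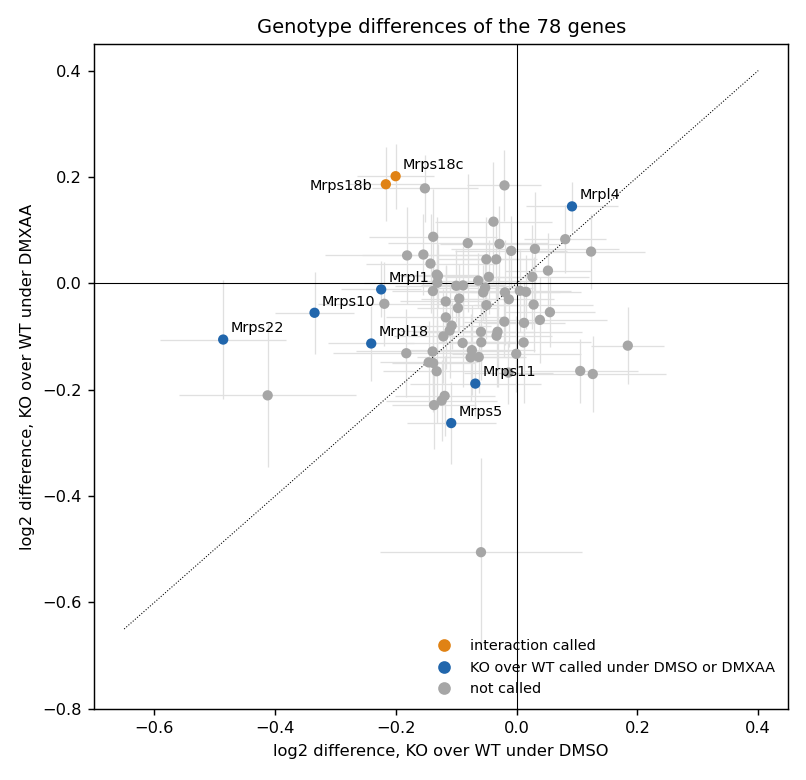
log2 difference of KO over WT for the 78 genes with DMSO (x axis) and with DMXAA (y axis), normalized counts as deposited, with SE bars (n = 3 libraries per group); the dotted line marks equal differences. Mrps18b and Mrps18c (orange) lie above the line at an interaction of 0.40 each, and Mrps22 lies farthest left at -0.49 with DMSO.

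Other genes of mitochondrial translation were put in lists by function. Each list's count as deposited is read against the background of 33.7% higher and 32.9% lower in KO and 31.7% and 31.1% in WT. Each count with equal totals is read against 15.7% higher and 61.7% lower in KO and 16.0% and 55.6% in WT. Of 5 mitoribosomal proteins with other names, 3 rose in KO and 3 rose and 1 fell in WT. Gadd45gip1 rose by 0.47 (SE 0.089, adjusted p = 9.34e-04) in KO and 0.31 (SE 0.08, adjusted p = 0.00672) in WT, Chchd1 by 0.32 (SE 0.073, adjusted p = 0.00289) and 0.35 (SE 0.082, adjusted p = 0.00391), and Aurkaip1 by 0.27 (SE 0.071, adjusted p = 0.00603) and 0.28 (SE 0.071, adjusted p = 0.00599). With equal totals none of the 5 was called higher, these 3 changed sign in at least 1 genotype without a call, and 2 in KO and 1 in WT were called lower.

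Of 24 genes of ribosome assembly and ribosomal RNA modification, 10 rose and 4 fell in KO (median 0.10) and 7 rose and 2 fell in WT (median 0.07). Trmt61b, a methyltransferase of mitochondrial transfer RNA and ribosomal RNA, rose most, by 1.41 (SE 0.10, adjusted p = 7.79e-07) in KO and 1.39 (SE 0.12, adjusted p = 5.53e-06) in WT, and was higher with equal totals too (1.03 and 1.08). Its normalized counts averaged 1076 ± 138 in KO with DMXAA against 402 ± 24.6 in KO with DMSO, and 1172 ± 92.5 in WT with DMXAA against 449 ± 78.8 in WT with DMSO. Mpv17l2, an assembly factor, rose by 0.54 (SE 0.067, adjusted p = 4.07e-05) and 0.61 (SE 0.077, adjusted p = 6.25e-05), Ddx28, an RNA helicase of large subunit assembly, by 0.67 (SE 0.074, adjusted p = 1.81e-05) and 0.34 (SE 0.11, adjusted p = 0.0183), and Nsun4, a methyltransferase of the small subunit RNA, by 0.29 (SE 0.064, adjusted p = 0.00255) and 0.35 (SE 0.074, adjusted p = 0.00195). With equal totals 2 were higher (Trmt61b and Ddx28) and 14 lower in KO, 2 were higher (Trmt61b and Mpv17l2) and 11 lower in WT, and Nsun4 was not called in either.

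Of 15 tested translation factors and messenger RNA regulators, 6 rose and 1 fell in KO (median 0.06) and 5 rose and 3 fell in WT (median -0.08). Slirp rose by 0.96 (SE 0.08, adjusted p = 2.09e-06) in KO and 0.91 (SE 0.11, adjusted p = 3.58e-05) in WT, while Lrpprc, its partner in the complex that stabilises mitochondrial messenger RNA, fell, at -0.35 (SE 0.06, adjusted p = 4.25e-04) and -0.40 (SE 0.074, adjusted p = 9.12e-04). With equal totals both kept their direction and call, Slirp at 0.57 and 0.59 and Lrpprc at -0.74 and -0.72. Taco1, an activator of cytochrome oxidase subunit translation, rose by 0.52 (SE 0.092, adjusted p = 5.93e-04) in KO and 0.38 (SE 0.11, adjusted p = 0.0133) in WT. Guf1, a mitochondrial elongation factor, was called lower in WT at -0.36 (SE 0.075, adjusted p = 0.00197) and was at -0.19 (SE 0.12, adjusted p = 0.167) in KO, and with equal totals it was lower in both. With equal totals Taco1 was not called in either genotype, Slirp was the 1 gene of the list called higher in either genotype, and 10 in KO and 9 in WT were lower.

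Of 20 mitochondrial aminoacyl-tRNA synthetases, 4 rose and 6 fell in KO (median 0.02) and 4 rose and 4 fell in WT (median 0.00). Lars2, for leucine, was lower at -0.52 (SE 0.063, adjusted p = 3.67e-05) in KO and -0.88 (SE 0.069, adjusted p = 1.98e-06) in WT, and the difference of these responses was called as deposited (0.36, SE 0.097, adjusted p = 0.0342) and not with equal totals (0.29, adjusted p = 0.0785 in limma). With DMSO it was also lower in KO than in WT, at -0.45 (SE 0.061, adjusted p = 4.42e-04). Nars2, for asparagine, was lower at -1.03 (SE 0.24, adjusted p = 0.00304) in KO and -1.13 (SE 0.12, adjusted p = 2.30e-05) in WT, and Tars2, for threonine, higher at 0.36 (SE 0.049, adjusted p = 9.57e-05) and 0.27 (SE 0.069, adjusted p = 0.00631). Pars2, for proline, was called higher in WT at 0.64 (SE 0.096, adjusted p = 2.26e-04) and was at 0.14 (SE 0.097, adjusted p = 0.241) in KO. With equal totals 0 were higher and 15 lower in KO and 1 (Pars2) higher and 12 lower in WT, and Tars2 was at -0.032 in KO and -0.044 in WT without a call.

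Of the genes that maintain and transcribe mitochondrial DNA, 4 of 13 tested rose and 2 fell in KO and 3 of 14 rose and 2 fell in WT. Polg, the catalytic subunit of the mitochondrial DNA polymerase, fell, at -0.81 (SE 0.045, adjusted p = 9.15e-08) in KO and -0.78 (SE 0.061, adjusted p = 2.19e-06) in WT, with 8117 ± 343 in KO with DMXAA against 14227 ± 207 in KO with DMSO, and 7847 ± 536 in WT with DMXAA against 13441 ± 682 in WT with DMSO. Tfb2m, an initiation factor of mitochondrial transcription, was lower at -0.47 (SE 0.064, adjusted p = 8.38e-05) and -0.76 (SE 0.082, adjusted p = 2.22e-05), and Hsd17b10, a subunit of mitochondrial RNase P, higher at 0.61 (SE 0.053, adjusted p = 2.77e-06) and 0.33 (SE 0.069, adjusted p = 0.00185). With equal totals Hsd17b10 was called higher in KO (0.22) and not called in WT (0.017), and 7 genes in KO and 8 in WT were lower.

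Of 9 tested transcriptional regulators tied to these genes, 2 rose and 3 fell in KO and 3 rose and 4 fell in WT. Myc, a transcription factor of ribosome and growth genes, was the lowest, at -4.00 (SE 0.13, adjusted p = 1.66e-09) in KO and -4.41 (SE 0.18, adjusted p = 1.70e-08) in WT, with 50.6 ± 3.79 in KO with DMXAA against 829 ± 98 in KO with DMSO, and 62.5 ± 6.35 in WT with DMXAA against 1376 ± 342 in WT with DMSO. Esrra, a nuclear receptor of mitochondrial genes, rose by 0.65 (SE 0.072, adjusted p = 1.87e-05) and 0.66 (SE 0.06, adjusted p = 6.90e-06), and Ppargc1b, a coactivator of such receptors, by 1.12 (SE 0.11, adjusted p = 1.30e-05) in WT, with 0.27 (SE 0.19, adjusted p = 0.229) in KO. The KO response of Ppargc1b was lower than the WT response by the interaction, at -0.85 (SE 0.23, adjusted p = 0.0315). Gabpb2, a subunit of the ETS factor GABP, was lower at -0.53 (SE 0.057, adjusted p = 1.45e-05) in KO and -0.63 (SE 0.091, adjusted p = 1.81e-04) in WT. With equal totals Esrra (0.26 and 0.34) and, in WT, Ppargc1b (0.81) were still called higher, and 7 of the 9 in KO and 6 in WT were lower. RNAs encoded in mitochondrial DNA were not analysed here.

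Between genotypes the same lists held few calls, against the backgrounds given for the Mrp genes. With DMSO, 1 gene each was lower in KO than in WT in the lists of other mitoribosomal proteins (Ptcd3, -0.19, SE 0.057, adjusted p = 0.0435), of assembly factors (Mrm3, -0.54, SE 0.15, adjusted p = 0.0272), of translation factors (Slirp, -0.31, SE 0.092, adjusted p = 0.0422), of synthetases (Lars2) and of regulators (Myc, -0.74, SE 0.16, adjusted p = 0.0103). With equal totals Ptcd3 (adjusted p = 0.0803 in limma) and Slirp (0.0585) were not called and the other 3 were. With DMXAA, Hsd17b10 (0.24, SE 0.051, adjusted p = 0.00687) and Polg2, the accessory subunit of the mitochondrial DNA polymerase (0.32, SE 0.074, adjusted p = 0.0103), were higher in KO, and Ssbp1, the mitochondrial single-stranded DNA-binding protein, lower (-0.31, SE 0.066, adjusted p = 0.00708). Pars2 was lower (-0.27, SE 0.083, adjusted p = 0.0381), and among the regulators Ppargc1b was lower (-0.86, SE 0.15, adjusted p = 0.00214) and Nrf1 (0.22, SE 0.059, adjusted p = 0.0225) and Gabpb2 (0.24, SE 0.072, adjusted p = 0.0385) higher; the last 2 were not called with equal totals. The response of Pars2 to DMXAA was lower in KO than in WT by the interaction, at -0.51 (SE 0.14, adjusted p = 0.0311).

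**Figure D5:**
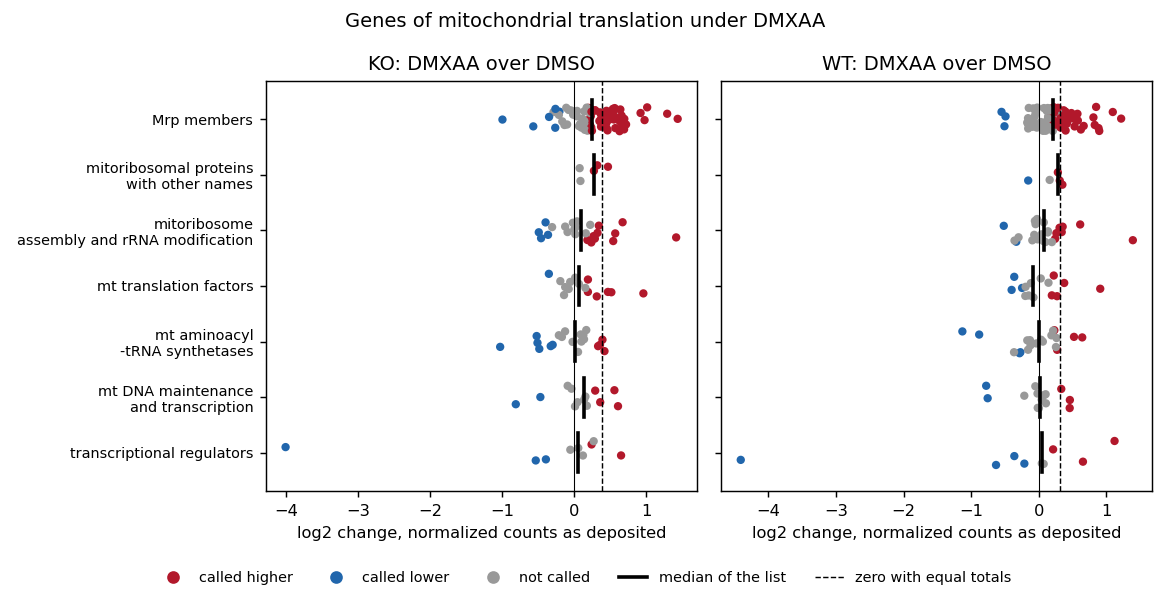
log2 change with DMXAA over DMSO in KO (left) and WT (right) for the 78 Mrp genes and for 6 lists of related genes, one point per gene (red called higher, blue called lower, grey not called; black bars are list medians; dashed line, zero with equal totals). The Mrp genes have medians of 0.24 in KO and 0.21 in WT; the point at the far left of each panel is Myc, at -4.00 in KO and -4.41 in WT.

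Some members start close to a gene on the other strand. In the annotation 18 of the 78 (23.1%) have a protein-coding gene on the other strand that starts within 1000 bases upstream. The share was 10.9% of 11721 tested protein-coding genes, and this was looked up after the values were seen. Pairs whose starts lie inside each other's gene, such as Mrpl46 and Mrps11, were not counted. As deposited, 14 members with such a neighbour were called higher in KO. The neighbour was higher for 4, lower for 7, not called for 2 and not tested for 1. Of all tested genes in KO, 33.7% were called higher and 32.9% lower. In WT, of 13 such members, it was higher for 2, lower for 5, not called for 5 and not tested for 1. The background in WT was 31.7% higher and 31.1% lower.

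Mitd1, 66 bases from Mrpl30, had the largest increase among these neighbours, at 2.36 (SE 0.098, adjusted p = 8.85e-09) in KO and 2.43 (SE 0.1, adjusted p = 1.47e-08) in WT. Psma2, a proteasome subunit 75 bases from Mrpl32, rose by 0.82 (SE 0.064, adjusted p = 1.19e-06) and 0.75 (SE 0.059, adjusted p = 2.13e-06). Helq, a DNA helicase 29 bases from Mrps18c, was not called, at -0.18 (SE 0.17, adjusted p = 0.366) in KO and 0.082 (SE 0.15, adjusted p = 0.654) in WT. Ppp1r10, a regulator of protein phosphatase 1 that starts 45 bases from Mrps18b, was lower, at -0.31 (SE 0.06, adjusted p = 0.00103) and -0.28 (SE 0.052, adjusted p = 0.00104), and Ncapd2, a condensin subunit 100 bases from Mrpl51, lower at -0.81 (SE 0.11, adjusted p = 5.99e-05) and -1.26 (SE 0.10, adjusted p = 3.14e-06). So, as deposited, the neighbour on the other strand was called higher in some pairs and lower in others. With equal totals Mitd1 (1.97 and 2.11) and Psma2 (0.43 and 0.43) kept their sign, and other neighbours did not. Sars2, 172 bases from Mrps12, was called higher in KO as deposited (0.33, and 0.21 in WT without a call). It was at -0.057 and -0.10 with equal totals. Apba3, 26 bases from Mrpl54, went from 0.11 and 0.13 without a call to -0.28 and -0.19.

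Reads of some members cannot be assigned with certainty. At least 10% of the exon bases lie on an exon of another gene for 15 members, on the same strand for 4 and on the opposite strand for 11. All exon bases of Mrpl53 are shared with Gm42688 on the same strand, Mrps25 overlaps Nr2c2 (58.2%), Mrpl19 overlaps Gcfc2 (39.2%), and Mrps6 shares exon bases with Gm49711 (36.1%) and Slc5a3 (18.8%). On the opposite strand, Mrpl24 overlaps Rrnad1 (38.2%) and Mrps30 overlaps B430218F22Rik (18.1%). Mrpl33 shares 22.4% of its exon bases with Gm43809 on the same strand. No pseudogene named after a member is listed in the tables.

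Over the 12 libraries, the genes outside the group whose level ran most like the mean log2 RPM of the 78 were Rnaseh2a (Pearson r 0.95), a subunit of ribonuclease H2, Cox7b (0.944) and Cox6b1 (0.939), both subunits of cytochrome c oxidase, Ubac1 (0.94), and Gfm2 (0.939), the factor that recycles mitochondrial ribosomes. The 12 points share the treatment and the scale by library, so the values are a description only.

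In the authors' deposited table, 45 of the 78 genes are marked higher and 6 lower with DMXAA in KO, and 40 higher and 3 lower in WT, all of them also called here. In the authors' deposited table for KO over WT, 1 is higher and 6 lower with DMSO, of which the fit here called 0 and 5, and 4 are higher and 2 lower with DMXAA, of which it called 2 and 2.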

How the data were processed

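RNA-seq was made from 12 libraries, 3 in each of 4 groups, with a DNBSEQ kit for strand-specific mRNA libraries, per the labels' protocols. Reads were aligned with HISAT2 to mm10 and counted with featureCounts, per the submitters' processing notes; tool versions and the strand setting used in counting are not given in the sources used here. Each deposited value is a normalized count, on a signal scale of reads divided by 1 size factor per library, in 4 tables of 6 libraries (KO, WT, DMSO, DMXAA), so levels were compared within a table. The deposited tables also hold the authors' log2 fold changes and adjusted p-values, used only where named. Divided by the smallest step in a library, 100% of values came out whole (tolerance 0.01), and those of a library listed in 2 tables were identical for 136511 of 136511 values.

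Here log2(normalized count + 1) of genes with a mean of at least 10 was fitted with limma 3.58.1 (R 4.3.3, lmFit and eBayes with an intensity trend). P-values are two-sided and adjusted over all genes of the fit by Benjamini-Hochberg, with a threshold of 0.05; the interaction joined the DMSO table and the DMXAA table, 12 libraries. Fold changes on this scale understate changes of low genes. Alternatives to this fit were a pseudocount of 5, no filter, equal totals, equal upper quartiles, a replicate block, each library left out and edgeR 4.0.16 (quasi-likelihood, TMM) on whole reads; limma and edgeR were tested on simulated data. Reads per kilobase used union exon lengths of GENCODE vM21 (mm10), and coordinates are of that build. Tables were joined with pandas 2.3.3 and numpy 2.4.6.

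The members and lists were chosen with earlier results of these data known. Members were named by rule: in each comparison of 2 groups the 8 highest and 8 lowest called, the 5 per direction in the interaction, the 5 highest and 5 lowest levels, those that turn direction with equal totals, and the Mrps18 paralogues; in each list the called genes with the smallest p, 1 of which is not reported here. No 2 libraries agreed within sampling noise (chi-square per gene 10.7 to 33.8 between replicates). A floor of 3 reads was 0.0306 to 0.0377 RPM, counting error only.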

Additional observations from a re-analysis of the deposited data

Results flagged for a closer look

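The response to DMXAA of 2 of the 78 genes differed between genotypes in the test of the difference itself. For Mrps18c, the response in KO minus that in WT was 0.40 on the log2 scale, and for Mrps18b it was 0.40, both over 12 libraries. The background of this comparison was 5.37% of genes with a higher response in KO, and 2 of 78 is below it.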

How the results depend on the processing

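Scaling mattered most. With equal totals 17 genes were higher and 35 lower with DMXAA in KO and 14 higher and 26 lower in WT, 1 was higher and 2 lower in KO than in WT with DMSO, 0 higher and 9 lower with DMXAA, and 1 had a lower response in KO. On that scale 28 had a log2 change above 0 in KO, against 62 as deposited, and 32 against 61 in WT. Of the calls of genes named by rule, the higher call became a lower call for Mrpl3 (-0.20), Mrpl4 (-0.17), Mrpl20 (-0.20), Mrpl24 (-0.17) and Mrpl33 (-0.19) in KO and Mrpl3 (-0.16) in WT, and Mrps18b in WT had the opposite sign without a call (-0.065). With equal upper quartiles 12 were lower in KO and 9 in WT, and 0 were higher in KO than in WT with DMXAA. By edgeR 46 were higher and 7 lower in KO, 39 and 5 in WT, and 2 and 2 in KO over WT with DMXAA, and with no filter 1 was lower in KO than in WT with DMXAA. No correlation between the deviations of same-numbered libraries was above 0.1. Between treatments they were 0.043, 0.032 and 0.064 in KO, above all other KO pairs, and -0.0033, 0.028 and -0.036 in WT. Such small values cannot show whether the number marks a shared animal or day. With the replicate block 45 were higher and 6 lower in KO, and 39 and 3 in WT. It gave 0 and 2 in KO over WT with DMSO, 1 and 1 with DMXAA, and 2 and 0 in the interaction. A block by the number in the library names, added after seeing the data, gave 44 and 5 in KO, 33 and 3 in WT, and 2 and 0 in the interaction. Leaving out each library gave 41 to 45 higher and 4 to 8 lower in KO, 34 to 44 and 3 to 4 in WT, 0 to 1 and 2 to 4 in KO over WT with DMSO, 0 to 1 and 0 to 2 with DMXAA, and 1 to 3 and 0 to 2 in the interaction. The cause of these shifts was not tested. With 3 libraries a group, small genotype differences may go uncalled.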
